A study of Oryza sativa with 18 samples.

Results

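Plants take up nitrogen as nitrate or ammonium and build it into amino acids, and 46 of the 34716 gene loci in the rice expression table matched a search for this pathway. They are every locus whose description holds, in upper or lower case, nitrate transporter, nitrate reductase, nitrite reductase, ammonium transporter, glutamine synthetase, glutamate synthase or asparagine synth. By step, 12 were nitrate transporters, 4 nitrate reductases, 3 nitrite reductases, 9 ammonium transporters, 4 glutamine synthetases (GS), 4 glutamate synthases (GOGAT) and 3 asparagine synthetases. The other 7 matched by a phrase inside another name. They are Os07g0585600 and Os03g0431200 (N-acetyl-glutamate synthase), Os03g0279400 (the arginine synthesis protein argJ), Os10g0503100 merged with Os10g0503200 (a transcription factor and folylpolyglutamate synthase), Os12g0507000 and Os02g0258900 (CNX2, a protein of molybdenum cofactor synthesis) and Os01g0183100 (a cytochrome cd1 domain protein). No other gene symbols were given to the loci, because the reference table used here does not pair these identifiers with symbols.

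Nitrate that enters a root cell is reduced to nitrite by nitrate reductase, which needs a molybdenum cofactor, and nitrite is reduced to ammonium in plastids by a nitrite reductase that takes electrons from ferredoxin. Ammonium, made this way or taken up by ammonium transporters, is joined to glutamate by GS, and GOGAT passes the amide nitrogen of glutamine on to 2-oxoglutarate. In leaves the chloroplast forms of GS and ferredoxin-dependent GOGAT also recapture the ammonium of photorespiration, whereas cytosolic GS and NADH-dependent GOGAT are the forms known for roots and vascular tissue. Asparagine synthetase makes asparagine, an amino acid in which plants store and move nitrogen.

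The study examined how rice answers a shortage of zinc (Zn) and its return, by sequencing poly(A) RNA of the roots and shoots (whole root system, leaf and stem) of Nipponbare rice. Roots formed the groups ZRR (Zn resupplied), ZMR (without Zn) and ZPR (with Zn), and shoots formed the groups ZRS, ZMS and ZPS in the same order. ZPR and ZPS were grown in Yoshida solution with 1.5 µM ZnSO4, ZMR and ZMS had no ZnSO4 for 2 weeks, and ZRR and ZRS were returned to 1.5 µM for 3 days after those 2 weeks. Each group had 3 libraries and each library was a pool of 3 seedlings, harvested 4 hours after the lights came on. All groups were wild type and nitrogen was not varied between them. Resupply cannot be told apart from age or harvest.

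Levels are given in FPKM, the number of sequenced fragments of a gene divided by its length and by the size of the library, which allows genes to be compared with each other. Coverage was between 3.67 and 7.75 reads per base for each FPKM. ZRR replicate 3 was the shallowest library, and the next was at 6.0. In bulk tissue, fewer cells of a type and less RNA per cell cannot be told apart. The tissue labels were checked with 16 loci of chlorophyll-binding proteins and small Rubisco subunits, whose summed level was 137 to 279 FPKM in roots and 5065 to 9518 FPKM in shoots, and with 6 loci of 4 root genes, whose sum was 748 to 2420.5 FPKM in roots and 4.73 to 17.2 FPKM in shoots. The root sum came mainly from the genes Lsi1 (Os02g0745100) and Lsi2 (Os03g0107300), the latter through a single locus. RCc3 (Os02g0662000) was listed at 0 in 6 of 9 root libraries. OsIRT1 (Os03g0667500) was at 2.30 FPKM in ZRR 1, 0.166 in ZRR 3, 1.19 in ZMR 1 and 2.91 in ZPR 1. Its other root libraries were at 32.7 to 132 FPKM and its shoot libraries at 0.352 to 1.22 FPKM. The lowest sum of the root genes, 748 FPKM, was that of ZRR replicate 3.

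**Figure D1:**
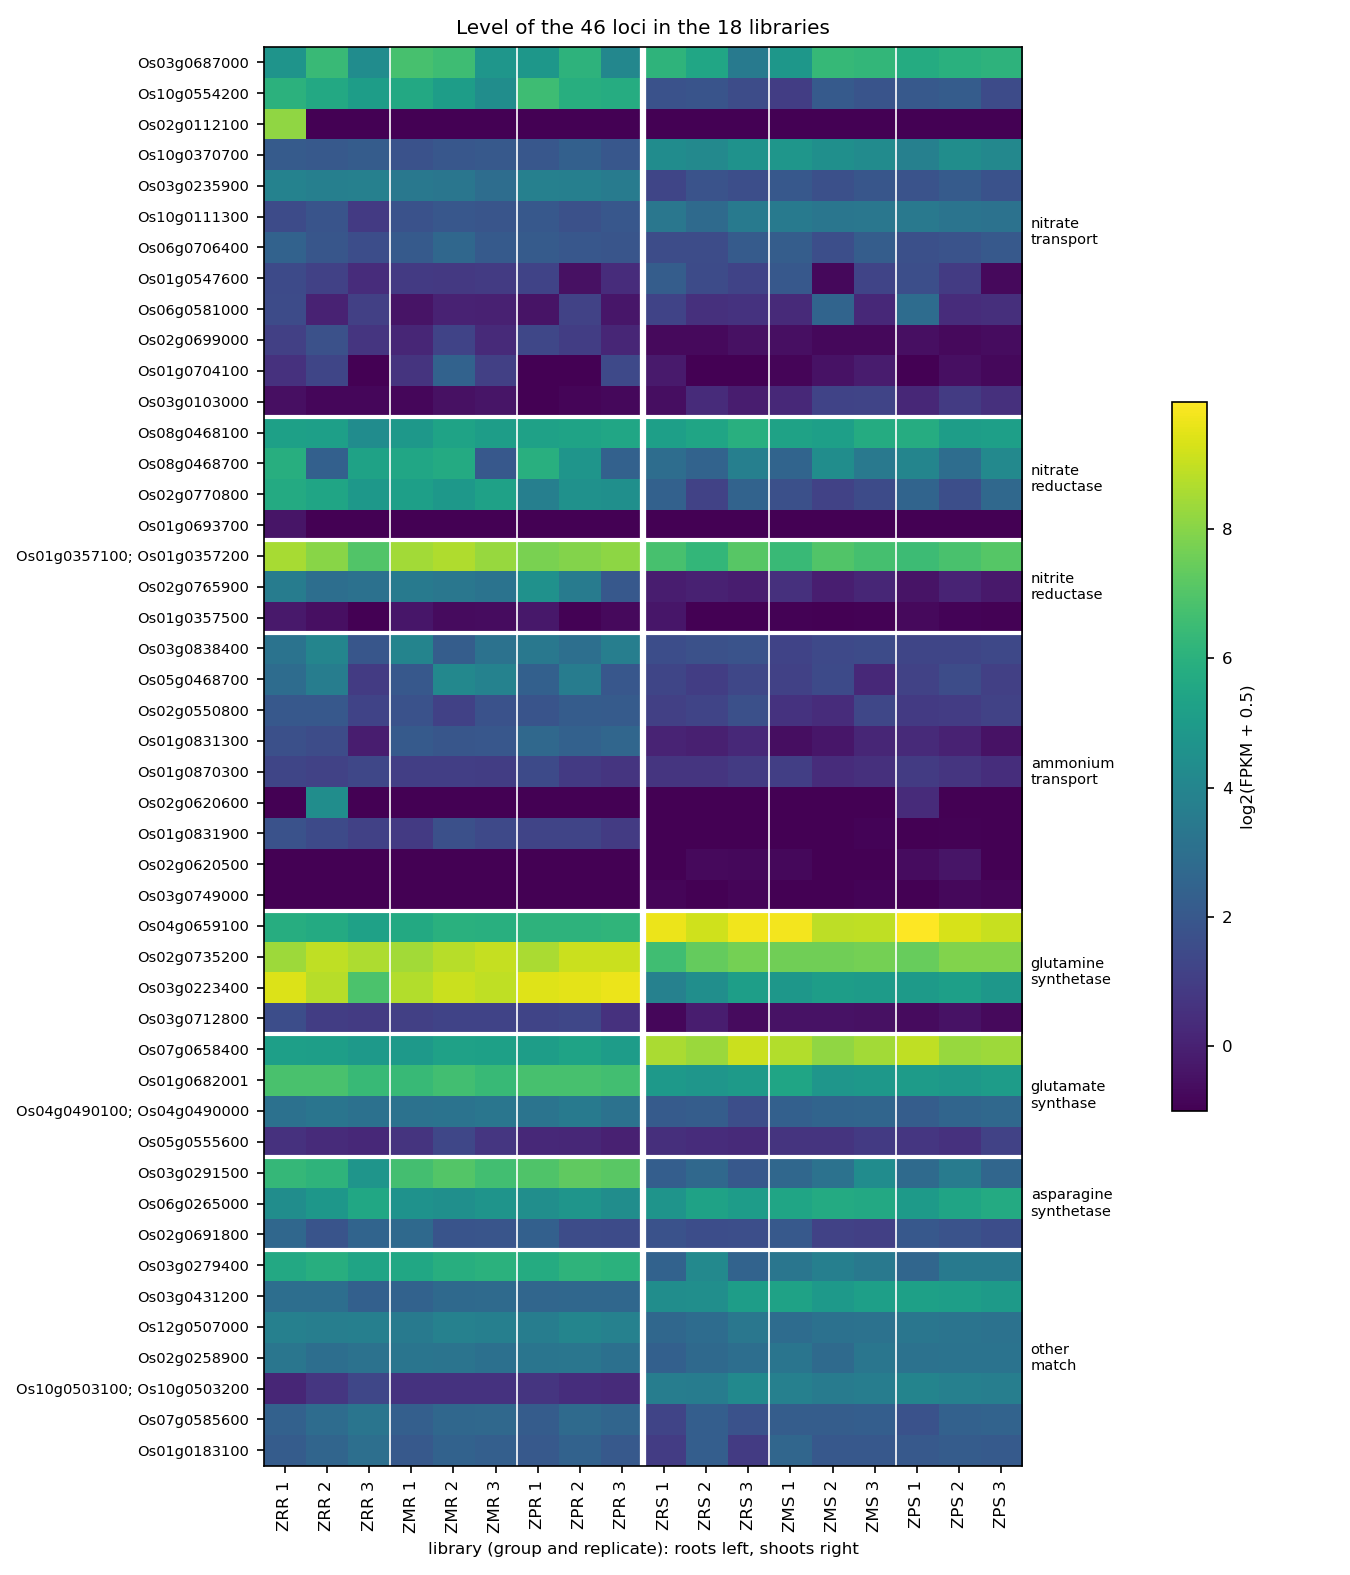
Level of the 46 loci (rows, grouped by step) in the 18 libraries (columns, roots left and shoots right), as log2(FPKM + 0.5) in colour. Chloroplast GS (Os04g0659100) and ferredoxin-dependent GOGAT (Os07g0658400) are bright in all 9 shoot libraries, cytosolic GS (Os03g0223400) in the roots, and Os02g0112100 only in ZRR 1.

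Root and shoot differed at many of the 46 loci, while no difference with Zn supply within an organ passed the test. Roots were compared with shoots at each Zn supply in a fit of all 18 libraries (limma on log2(FPKM + 0.5), p-values adjusted by Benjamini-Hochberg over the 24431 loci that reached 0.5 FPKM in 3 or more libraries). A locus was called when its log2 fold change was at least 1 in size and its adjusted p was at most 0.05. Of the 46 loci, 40 passed the filter on low values, and 23, 25 and 23 of them were called in ZRR/ZRS, ZMR/ZMS and ZPR/ZPS, or 57.5, 62.5 and 57.5%, against 39.4, 31.9 and 34.1% of all tested loci. In ZRR/ZRS 17 were higher and 6 lower (all tested loci 27.6 and 11.8%), in ZMR/ZMS 17 and 8 (18.5 and 13.4%), and in ZPR/ZPS 16 and 7 (20.5 and 13.5%). Without ZRR replicate 3, the shallow library, ZRR/ZRS had 25 calls (all tested loci 36.0%), and without ZRS replicate 1 it had 20 (33.0%). Across all 3 supplies, 14 loci were called higher in roots and 6 lower (all tested loci 14.7 and 9.98%, together 24.6%). Another 9 were called at 1 or 2 supplies and 11 at none. No share of all tested loci was worked out for these counts, so nothing is read from them. Of the 14, 3 (Os01g0831900, Os02g0699000 and Os03g0712800) were under 0.5 FPKM in every shoot library, so that they passed the filter only through the roots, where they are high, and count as no support for a difference. Among all tested loci the same held for 1066 of the 3580 called higher in roots at all 3 supplies. In 15 loci every root library lay above every shoot library, and in 6 every root library lay below (all tested loci 23.6 and 12.2%). The 15 include Os01g0831900, Os02g0699000 and Os03g0712800. The counts called at each supply also include them, with Os01g0704100 in ZMR/ZMS and Os03g0103000 in ZMR/ZMS and ZPR/ZPS. Os01g0704100 stayed under 0.5 FPKM in every shoot library and Os03g0103000 in every root library, so their calls count as no support either.

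All tested loci leaned towards roots, with median log2 fold changes of 0.58, 0.36 and 0.38 in ZRR/ZRS, ZMR/ZMS and ZPR/ZPS, against 0.97, 0.72 and 0.60 for the 40 nitrogen loci. Scaling that removes this shift (median of ratios) left 18, 22 and 21 of the 40 called in ZRR/ZRS, ZMR/ZMS and ZPR/ZPS (all tested loci 29.1, 29.0 and 30.2%). It changed the split in ZRR/ZRS to 11 higher and 7 lower among the 40, and to 3133 higher and 3980 lower among all tested loci. No called direction turned round under it.

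**Figure D2:**
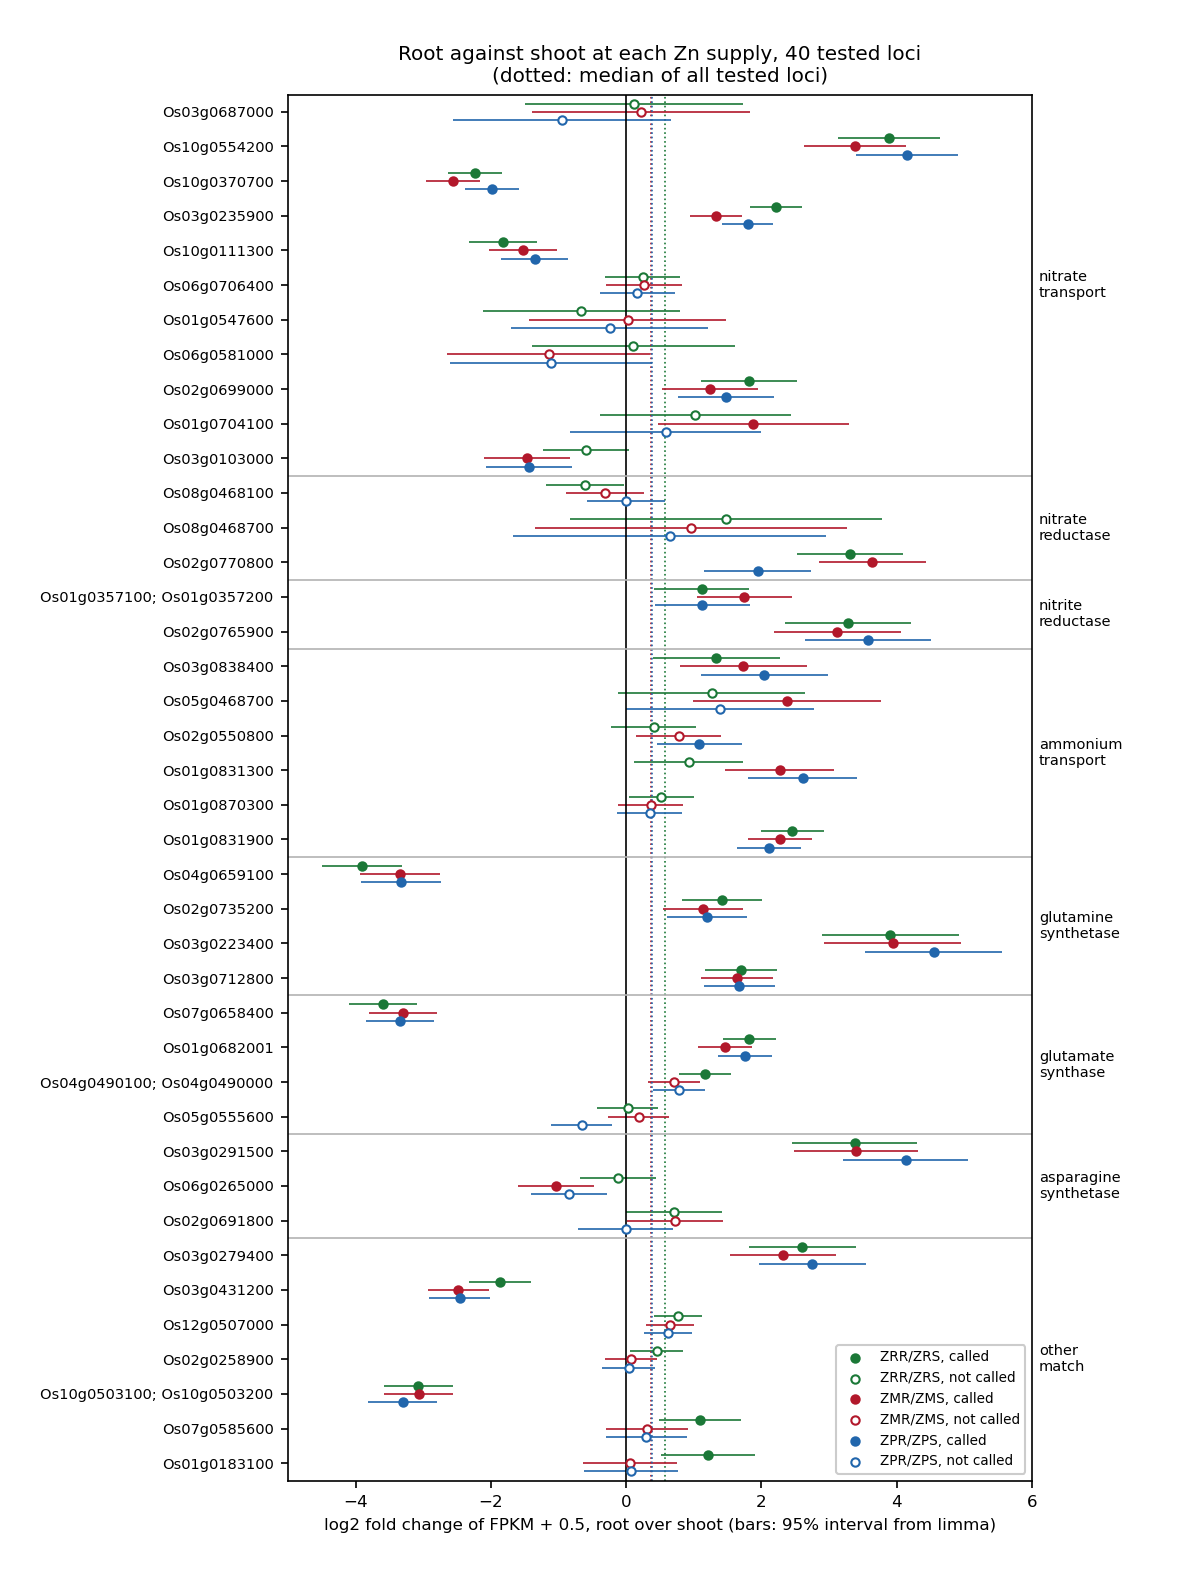
Log2 fold change of root over shoot (FPKM + 0.5) of the 40 tested loci at each Zn supply, with 95% intervals, filled where called. Dotted lines mark the medians of all tested loci (0.58, 0.36 and 0.38). The largest changes are those of cytosolic GS to the right, and of chloroplast GS and ferredoxin-dependent GOGAT to the left.

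Of the 12 nitrate transporters, 11 were tested, 3 were called higher in roots at all 3 supplies and 2 lower (all tested loci 14.7 and 9.98%). Highest above shoots was Os10g0554200 (chromosome 10, 21757705 to 21762300 on IRGSP-1.0), described as a transporter of nitrate uptake. Root libraries of Os10g0554200 were at 66.7, 49.2 and 33.5 FPKM in ZRR, 48.1, 33.5 and 20.6 FPKM in ZMR, and 93.1, 57.8 and 55.6 FPKM in ZPR. In shoots, Os10g0554200 was at 2.89, 3.07 and 2.42 FPKM in ZRS, 1.49, 3.76 and 3.15 FPKM in ZMS, and 3.68, 4.07 and 2.38 FPKM in ZPS. Every root library was far above every shoot library, and the fold change was 3.88 (ZRR/ZRS), 3.38 (ZMR/ZMS) and 4.15 (ZPR/ZPS) on the log2 scale (SE 0.35, adjusted p at most 1.45e-06). The low-affinity transporter similar to NRT1.2, Os03g0235900, was at 14.0, 12.9 and 13.1 FPKM in ZRR, 9.89, 9.44 and 7.05 FPKM in ZMR, and 13.3, 13.0 and 11.3 FPKM in ZPR. Its shoot values were 1.94, 2.97 and 2.64 FPKM in ZRS, 3.62, 2.69 and 3.27 FPKM in ZMS, and 3.03, 3.92 and 2.88 FPKM in ZPS. Roots and shoots did not overlap, and Os03g0235900 was higher in roots by 2.21 (ZRR/ZRS), 1.32 (ZMR/ZMS) and 1.80 (ZPR/ZPS) on the log2 scale (SE 0.18, adjusted p at most 2.16e-05), although the ZMR/ZMS call was lost with median-of-ratios scaling (0.95). The third, the tonoplast low-affinity transporter Os02g0699000, was low, at 0.623 to 2.76 FPKM in roots and 0.0878 to 0.197 FPKM in shoots, and its ZMR/ZMS call (1.24) was lost without ZMR replicate 2 (0.91). Os02g0699000 passed the filter only through the roots, so its calls count as no support for a difference.

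Os10g0370700 and Os10g0111300, both described as similar to a nitrate transporter entry marked as a fragment, went the other way. Os10g0370700 had 3.96, 3.63 and 4.04 FPKM in ZRR, 2.94, 3.46 and 3.68 FPKM in ZMR, and 3.45, 4.62 and 3.45 FPKM in ZPR. Shoot libraries held more of Os10g0370700, with 19.7, 17.4 and 23.5 FPKM in ZRS, 26.7, 21.6 and 18.8 FPKM in ZMS, and 13.3, 20.2 and 16.9 FPKM in ZPS. All 9 root libraries were below all 9 shoot libraries, with fold changes of -2.23 (ZRR/ZRS), -2.56 (ZMR/ZMS) and -1.99 (ZPR/ZPS) on the log2 scale (SE 0.19, adjusted p at most 4.37e-07). Os10g0111300 had 2.31, 3.08 and 1.30 FPKM in ZRR, 2.88, 3.39 and 3.22 FPKM in ZMR, and 3.60, 2.78 and 3.45 FPKM in ZPR. In shoots it was at 9.74, 6.44 and 10.8 FPKM in ZRS, 11.1, 9.38 and 9.70 FPKM in ZMS, and 10.4, 8.78 and 8.29 FPKM in ZPS. The organs again did not overlap, and Os10g0111300 was lower in roots, with fold changes of -1.82 (ZRR/ZRS), -1.53 (ZMR/ZMS) and -1.35 (ZPR/ZPS) on the log2 scale (SE 0.23, adjusted p at most 0.000225). Os03g0103000, similar to a nitrate transporter, was close to 0 in roots, with 0.179, 0.0729 and 0.0772 FPKM in ZRR, 0.0646, 0.209 and 0.258 FPKM in ZMR, and 0, 0.0472 and 0.0811 FPKM in ZPR. In shoots Os03g0103000 was at 0.157, 0.790 and 0.410 FPKM in ZRS, 0.686, 1.77 and 1.88 FPKM in ZMS, and 0.655, 1.38 and 0.941 FPKM in ZPS. It was called lower in roots in ZMR/ZMS (-1.47) and ZPR/ZPS (-1.43) but not in ZRR/ZRS (-0.59, adjusted p = 0.102), where the ZRS replicate 1 value of 0.157 lay within the root range. Every root library of Os03g0103000 was under 0.5 FPKM, so it passed the filter only through the shoots. Its calls count as no support for a difference.

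The most abundant nitrate transporter, Os03g0687000, described for acquisition and long-distance transport, was not called between the organs. It was at 25.02, 86.9 and 19.9 FPKM in ZRR, 108, 93.5 and 26.5 FPKM in ZMR, and 27.2, 67.6 and 16.6 FPKM in ZPR. Shoots had 69.1, 44.6 and 10.9 FPKM in ZRS, 27.4, 79.9 and 77.0 FPKM in ZMS, and 53.7, 62.4 and 67.8 FPKM in ZPS. Single libraries of 1 group stood up to 6.09-fold apart in FPKM + 0.5, and the 95% intervals of the root over shoot fold change were -1.50 to 1.73 (ZRR/ZRS), -1.39 to 1.84 (ZMR/ZMS) and -2.57 to 0.66 (ZPR/ZPS), so that no direction could be read. Os02g0112100, a high-affinity uptake transporter with 1 exon, was at 284 FPKM in ZRR replicate 1 and listed at 0 in the other 17 libraries. That 1 library made the mean of the locus, and Os02g0112100 was left out of every test by the filter. The remaining 4 (Os01g0547600, Os01g0704100, Os06g0581000 and Os06g0706400) had means between 0.780 and 3.56 FPKM over the 18 libraries. Of these, Os01g0704100, a long-distance transporter, was called higher in ZMR/ZMS alone (1.88), a call that was lost with median-of-ratios scaling (1.64) and without ZMR replicate 2, ZMS replicate 1 or ZMS replicate 2 (1.35, 1.71 and 1.89). Every shoot library of Os01g0704100 was under 0.5 FPKM, so it passed the filter only through the roots. This call counts as no support for a difference.

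Nitrate reductase came from 3 loci at sizeable levels. Os02g0770800, the form that can use NADH or NADPH, was at 51.7, 43.4 and 28.4 FPKM in ZRR, 35.7, 28.1 and 37.9 FPKM in ZMR, and 12.8, 22.8 and 21.7 FPKM in ZPR. In shoots, Os02g0770800 was at 4.79, 1.77 and 5.16 FPKM in ZRS, 2.73, 1.76 and 2.30 FPKM in ZMS, and 5.31, 2.63 and 6.095 FPKM in ZPS. The lowest root library was above the highest shoot library, and the fold change was 3.31 (ZRR/ZRS), 3.64 (ZMR/ZMS) and 1.94 (ZPR/ZPS) on the log2 scale (SE 0.37, adjusted p at most 0.000505). Os08g0468100, annotated only as a nitrate reductase, was not called between the organs. Root libraries of Os08g0468100 had 36.8, 36.1 and 19.8 FPKM in ZRR, 28.6, 40.5 and 33.7 FPKM in ZMR, and 37.9, 40.3 and 45.2 FPKM in ZPR. Shoot libraries of Os08g0468100 had 36.0, 43.8 and 59.7 FPKM in ZRS, 39.1, 36.2 and 53.5 FPKM in ZMS, and 55.6, 33.9 and 36.5 FPKM in ZPS. These overlapped at every supply, and the 95% intervals of the fold change were -1.18 to -0.03 (ZRR/ZRS), -0.89 to 0.26 (ZMR/ZMS) and -0.58 to 0.58 (ZPR/ZPS).

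The NADH form Os08g0468700 lies 13.1 kb from Os08g0468100 on chromosome 8, on the opposite strand. Its root libraries were at 59.1, 4.69 and 39.0 FPKM in ZRR, 44.6, 51.7 and 3.61 FPKM in ZMR, and 59.7, 26.0 and 4.75 FPKM in ZPR. Its shoot libraries were at 7.11, 5.09 and 12.9 FPKM in ZRS, 5.27, 20.3 and 10.4 FPKM in ZMS, and 15.4, 7.18 and 17.5 FPKM in ZPS. One library in each root group (ZRR 2, ZMR 3 and ZPR 3) was between 3.61 and 4.75 FPKM while the other 6 were between 26.0 and 59.7 FPKM, and the neighbour Os08g0468100 did not drop with them (36.1, 33.7 and 45.2 FPKM in the same 3 libraries). The largest ratio between replicates of 1 group was 12.7 in FPKM + 0.5, the widest of the 40 tested loci, and no comparison of Os08g0468700 was called. The fourth locus, Os01g0693700, has 1 exon and was at 0.262 FPKM in ZRR replicate 1 and listed at 0 in the other 17 libraries. In shoots, Os08g0468100 made 75.1% of the summed FPKM of the family, whereas in roots the 3 loci made 32.6% (Os02g0770800), 37.5% (Os08g0468100) and 29.9% (Os08g0468700) on average.

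Nitrite reductase was dominated by 1 locus, Os01g0357100 merged in the table with Os01g0357200 (a sterol-binding protein), which held 96.1% of the family in roots and 99.5% in shoots. It was at 368, 262 and 128 FPKM in ZRR, 347, 408 and 311 FPKM in ZMR, and 216, 243 and 276 FPKM in ZPR. Its shoot level was 111, 77.3 and 140.0 FPKM in ZRS, 85.1, 126 and 108 FPKM in ZMS, and 91.4, 114 and 134 FPKM in ZPS. Roots were higher by 1.12 (ZRR/ZRS), 1.75 (ZMR/ZMS) and 1.12 (ZPR/ZPS) on the log2 scale (SE 0.33, adjusted p at most 0.0112), and ZMR and ZPR did not overlap with ZMS and ZPS, while ZRR replicate 3 at 128 FPKM was below ZRS replicate 3. Median-of-ratios scaling ended the calls in ZRR/ZRS (0.42) and ZPR/ZPS (0.68). The ZRR/ZRS call was also lost without ZRR replicate 1 or ZRS replicate 2 (0.78 and 0.89), and the ZPR/ZPS call without ZPS replicate 1 (0.98). The ferredoxin-nitrite reductase Os02g0765900 was far lower in shoots than in roots, which had 11.6, 7.23 and 7.93 FPKM in ZRR, 10.99, 9.60 and 8.51 FPKM in ZMR, and 23.1, 11.3 and 3.61 FPKM in ZPR. Shoot values of Os02g0765900 were 0.420, 0.504 and 0.420 FPKM in ZRS, 0.953, 0.457 and 0.636 FPKM in ZMS, and 0.252, 0.556 and 0.342 FPKM in ZPS. No library of either organ overlapped with the other organ, and the fold change was 3.29 (ZRR/ZRS), 3.12 (ZMR/ZMS) and 3.58 (ZPR/ZPS) on the log2 scale (SE 0.44, adjusted p at most 3.04e-05). Os01g0357500, a locus with 1 exon 7.21 kb from the main locus, stayed at or under 0.329 FPKM in all libraries.

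Ammonium transporters were low, with a summed level over 9 loci of 10.6 to 57.8 FPKM in roots and 6.30 to 9.95 FPKM in shoots. The 57.8 FPKM of ZRR replicate 2 included 20.2 FPKM of Os02g0620600, listed at 0 in the other 8 root libraries, and the next highest root sum was 32.2 FPKM. Of the 6 tested, 2 were called higher in roots at all 3 supplies (all tested loci 14.7%), of which Os01g0831900 counts as no support for a difference. Os03g0838400, the most abundant, was at 8.67, 15.6 and 3.29 FPKM in ZRR, 14.8, 4.24 and 8.19 FPKM in ZMR, and 10.2, 7.62 and 12.5 FPKM in ZPR. In shoots, Os03g0838400 was at 2.50, 2.81 and 3.04 FPKM in ZRS, 1.80, 2.15 and 2.32 FPKM in ZMS, and 1.99, 1.96 and 2.13 FPKM in ZPS. Every root library was above every shoot library, with fold changes of 1.33 (ZRR/ZRS), 1.73 (ZMR/ZMS) and 2.04 (ZPR/ZPS) on the log2 scale (SE 0.44, adjusted p at most 0.0185). The ZRR/ZRS call of Os03g0838400 was lost with median-of-ratios scaling (0.71) and without ZRS replicate 1, ZRR replicate 1 or ZRR replicate 2 (1.27, 1.25 and 0.85). Os01g0831900 was at 1.34 to 2.95 FPKM in roots and at most 0.0446 FPKM in shoots, where 7 of 9 libraries were listed at 0. It was called at all 3 supplies but passed the filter only through the roots.

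Os05g0468700 varied widely between pools, with 6.76, 12.1 and 1.40 FPKM in ZRR, 3.53, 16.7 and 14.0 FPKM in ZMR, and 4.66, 11.6 and 3.48 FPKM in ZPR. Shoots were lower and closer together for Os05g0468700, at 1.98, 1.52 and 2.02 FPKM in ZRS, 1.68, 2.27 and 0.686 FPKM in ZMS, and 1.74, 2.42 and 1.61 FPKM in ZPS. Only ZMR/ZMS was called (2.38, adjusted p = 0.00782). Os01g0831300, which lies 8.5 kb from Os01g0831900 on chromosome 1 and on the same strand, was at 2.69, 2.43 and 0.418 FPKM in ZRR, 3.83, 3.37 and 3.42 FPKM in ZMR, and 6.04, 4.82 and 5.62 FPKM in ZPR. Its shoot libraries were at 0.560, 0.485 and 0.695 FPKM in ZRS, 0.159, 0.285 and 0.636 FPKM in ZMS, and 0.722, 0.545 and 0.232 FPKM in ZPS. It was called in ZMR/ZMS (2.27) and ZPR/ZPS (2.61) but was under the fold threshold in ZRR/ZRS (0.93), where ZRR replicate 3 at 0.418 FPKM lay inside the shoot range. Os02g0550800 (0.801 to 4.11 FPKM over all libraries) was called in ZPR/ZPS alone (1.08), a call that was lost with median-of-ratios scaling (0.72). Os01g0870300 (0.796 to 2.23 FPKM) was called at no supply. Os02g0620500 and Os03g0749000 were listed at 0 in all 9 root libraries and at most 0.263 FPKM in shoots. Os02g0620600, with 1 exon, was at 20.2 FPKM in ZRR replicate 2, 0.766 FPKM in ZPS replicate 1 and 0 elsewhere.

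GS was carried by different loci in the 2 organs. The summed level of its 4 loci was similar, 546 to 1423 FPKM in roots and 696 to 1206 FPKM in shoots. Chloroplast GS (Os04g0659100, chromosome 4, 33624352 to 33631653) was at 56.3, 52.1 and 38.7 FPKM in ZRR, 49.8, 61.7 and 60.0 FPKM in ZMR, and 67.1, 66.9 and 72.1 FPKM in ZPR. In shoots it reached 794, 585 and 856 FPKM in ZRS, 865, 472 and 485 FPKM in ZMS, and 1003, 632 and 533 FPKM in ZPS. The highest root library, at 72.1 FPKM, was far below the lowest shoot library, at 472 FPKM, and the fold change was -3.91 (ZRR/ZRS), -3.34 (ZMR/ZMS) and -3.33 (ZPR/ZPS) on the log2 scale (SE 0.28, adjusted p at most 1.19e-07). Cytosolic GS (Os03g0223400, chromosome 3, 6457910 to 6462615) had the opposite pattern, with 676, 448 and 115 FPKM in ZRR, 419.5, 544 and 488 FPKM in ZMR, and 698, 730.2 and 801 FPKM in ZPR. In shoots, cytosolic GS was at 13.7, 20.6 and 34.5 FPKM in ZRS, 27.4, 34.0 and 31.8 FPKM in ZMS, and 30.7, 36.0 and 27.7 FPKM in ZPS. It was higher in roots by 3.90 (ZRR/ZRS), 3.94 (ZMR/ZMS) and 4.55 (ZPR/ZPS) on the log2 scale (SE 0.47, adjusted p at most 7.6e-06), with ZRR replicate 3 at 115 FPKM far below the other 8 root libraries. The summed level of the root genes used to check the tissue was also lowest in ZRR replicate 3, although single genes among them were lower in other root libraries, and whether both are linked was not tested.

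Another form, Os02g0735200, is annotated as the shoot isozyme of clone GS28, yet roots held more of it. Root libraries of Os02g0735200 were at 334, 487 and 391 FPKM in ZRR, 347, 444 and 510.3 FPKM in ZMR, and 380.1, 545 and 548 FPKM in ZPR. Shoot libraries of Os02g0735200 were at 97.0, 167 and 205 FPKM in ZRS, 193, 190.4 and 202 FPKM in ZMS, and 172, 236 and 234 FPKM in ZPS. Os02g0735200 was called at all 3 supplies, by 1.41 (ZRR/ZRS), 1.13 (ZMR/ZMS) and 1.19 (ZPR/ZPS) on the log2 scale (SE 0.28, adjusted p at most 0.00378), and lay under the fold threshold at all 3 with median-of-ratios scaling (0.71, 0.73 and 0.75). Os03g0712800, similar to a root isozyme, was scarce, at 1.0 to 2.54 FPKM in roots and 0.0638 to 0.411 FPKM in shoots, and was called at all 3 supplies. It passed the filter only through the roots, so these calls count as no support for a difference. As shares of the summed FPKM, chloroplast GS was 5.68% of the family in roots (4.98 to 7.09% over 9 libraries) and 75.2% in shoots (67.0 to 87.8%). The locus described as cytosolic, Os03g0223400, was 50.0% in roots (21.1 to 63.3%) and 3.24% in shoots (1.51 to 4.88%). Os02g0735200 was 44.1% in roots (31.2 to 71.6%) and 21.6% in shoots (10.7 to 29.5%). Its description names no cell compartment, so the share of Os03g0223400 is not that of all cytosolic GS.

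GOGAT divided in the same manner. Ferredoxin-dependent GOGAT (Os07g0658400, chromosome 7, 27723017 to 27738335) was at 36.6, 34.6 and 29.0 FPKM in ZRR, 30.1, 38.0 and 36.9 FPKM in ZMR, and 34.3, 40.7 and 32.6 FPKM in ZPR. In shoots, Os07g0658400 was at 377, 324 and 553 FPKM in ZRS, 423, 286 and 351 FPKM in ZMS, and 488, 307 and 326 FPKM in ZPS. The organs were far apart, with fold changes of -3.59 (ZRR/ZRS), -3.31 (ZMR/ZMS) and -3.34 (ZPR/ZPS) on the log2 scale (SE 0.23, adjusted p at most 2.24e-08). NADH-dependent GOGAT (Os01g0682001) was at 114, 113 and 83.2 FPKM in ZRR, 83.3, 99.3 and 84.6 FPKM in ZMR, and 109.8, 111 and 100.01 FPKM in ZPR. Its shoot level was 29.0, 26.4 and 30.6 FPKM in ZRS, 43.2, 26.7 and 28.4 FPKM in ZMS, and 32.3, 28.2 and 33.4 FPKM in ZPS. All root libraries were above all shoot libraries, by 1.82 (ZRR/ZRS), 1.46 (ZMR/ZMS) and 1.76 (ZPR/ZPS) on the log2 scale (SE 0.19, adjusted p at most 1.17e-05). The ferredoxin form held 24.2% of the family in roots (21.9 to 27.9%) and 91.0% in shoots (88.8 to 94.2%). Os01g0682001 held 69.0% in roots (64.0 to 71.8%) and 7.56% in shoots (5.21 to 9.16%).

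A further NADH-dependent GOGAT, Os04g0490100, is merged with Os04g0490000, a protoporphyrinogen oxidase, so that its level mixes both genes. It was at 8.10, 9.21 and 8.01 FPKM in ZRR, 8.31, 8.47 and 9.53 FPKM in ZMR, and 8.81, 10.52 and 8.38 FPKM in ZPR. Shoot libraries of the merged locus had 3.88, 4.23 and 2.57 FPKM in ZRS, 4.68, 5.29 and 5.52 FPKM in ZMS, and 4.17, 5.41 and 6.05 FPKM in ZPS. The organs did not overlap, but only ZRR/ZRS passed the fold threshold (1.16), and this call was lost with median-of-ratios scaling (0.52) and without ZRS replicate 3 (0.97). Os05g0555600, similar to NADH-GOGAT 2, was at 0.518 to 1.99 FPKM in roots and 0.724 to 1.77 FPKM in shoots and was not called between the organs.

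**Figure D3:**
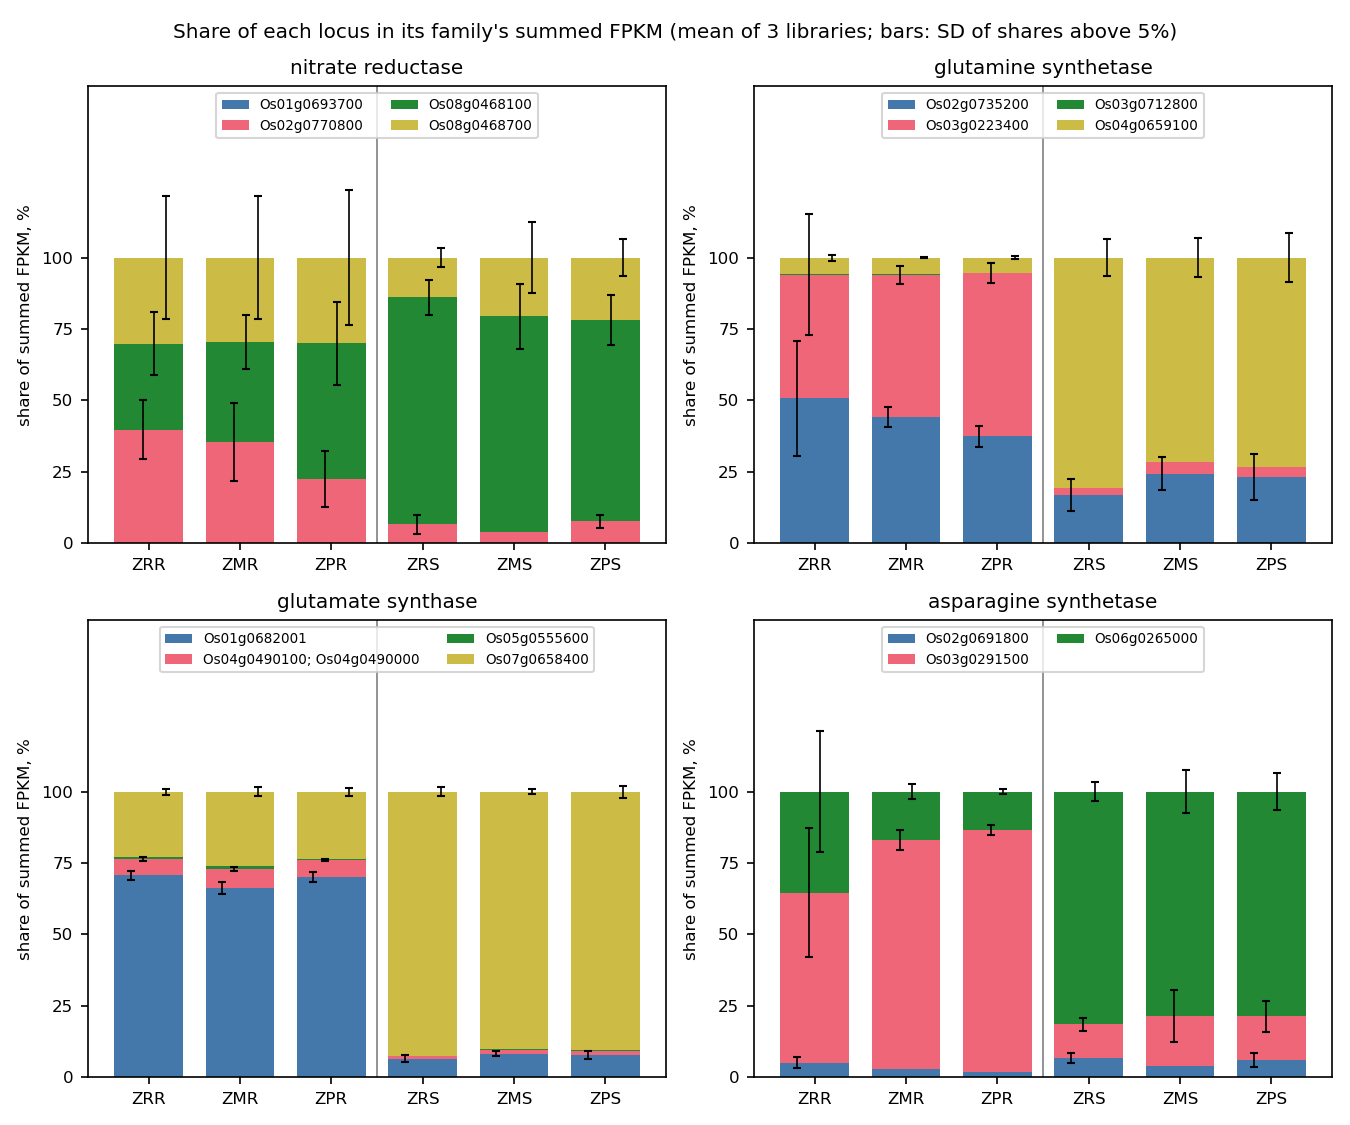
Share of each locus in the summed FPKM of 4 enzyme families, as the mean of 3 libraries in each group with the SD of shares above 5% (roots ZRR, ZMR and ZPR left of shoots ZRS, ZMS and ZPS). Chloroplast GS is 5.68% of its family in roots and 75.2% in shoots, and ferredoxin-dependent GOGAT 24.2 and 91.0%.

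Asparagine synthetase was split between 2 main loci. Os03g0291500, described as making asparagine after ammonium is supplied, was at 78.1, 70.4 and 25.5 FPKM in ZRR, 102, 129 and 101 FPKM in ZMR, and 124, 157 and 141 FPKM in ZPR. In shoots, Os03g0291500 was at 4.35, 6.09 and 3.55 FPKM in ZRS, 5.93, 8.40 and 19.6 FPKM in ZMS, and 6.51, 11.4 and 5.68 FPKM in ZPS. Every root library was above every shoot library, and the fold change was 3.38 (ZRR/ZRS), 3.40 (ZMR/ZMS) and 4.13 (ZPR/ZPS) on the log2 scale (SE 0.43, adjusted p at most 1.28e-05). Os06g0265000, described for long-distance transport of asparagine, was the main form of shoots. Its root libraries were at 20.4, 27.5 and 45.5 FPKM in ZRR, 23.3, 21.6 and 24.9 FPKM in ZMR, and 21.1, 25.8 and 20.1 FPKM in ZPR. Its shoot libraries were at 25.2, 40.04 and 32.8 FPKM in ZRS, 43.0, 52.4 and 49.2 FPKM in ZMS, and 30.6, 42.1 and 51.0 FPKM in ZPS. Os06g0265000 was called lower in roots in ZMR/ZMS alone (-1.03), a call that was lost without ZMS replicate 2 or ZMR replicate 2 (-0.97 and -0.98). Os03g0291500 was 74.6% of the family in roots (33.5 to 86.3% over 9 libraries) and 14.8% in shoots (9.11 to 27.9%). Os06g0265000 was 22.0% in roots (12.3 to 59.7%) and 79.5% in shoots (69.8 to 86.2%). In ZRR replicate 3 alone among the roots, Os06g0265000 was the larger share, with 59.7% against 33.5% for Os03g0291500. Os02g0691800, of the asparagine synthase family, was at 1.62 to 6.27 FPKM in the 18 libraries and not called.

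The 7 loci that matched by another name went in several directions. Os03g0279400 (argJ, which transfers acetyl groups in arginine synthesis) was higher in roots, with 48.8, 58.0 and 41.7 FPKM in ZRR, 45.3, 59.1 and 63.8 FPKM in ZMR, and 53.3, 68.9 and 63.1 FPKM in ZPR. Its shoots had 4.97, 17.2 and 5.13 FPKM in ZRS, 9.26, 13.0 and 10.3 FPKM in ZMS, and 5.69, 10.9 and 10.498 FPKM in ZPS. Roots and shoots of Os03g0279400 did not overlap, with fold changes of 2.60 (ZRR/ZRS), 2.32 (ZMR/ZMS) and 2.75 (ZPR/ZPS) on the log2 scale (SE 0.37, adjusted p at most 0.00011). The N-acetyl-glutamate synthase Os03g0431200, which makes the first intermediate of arginine synthesis, was lower in roots, with 7.36, 7.30 and 4.62 FPKM in ZRR, 4.91, 6.16 and 6.36 FPKM in ZMR, and 5.72, 5.86 and 5.91 FPKM in ZPR. Its shoots had 20.0, 21.2 and 33.6 FPKM in ZRS, 39.9, 28.9 and 35.8 FPKM in ZMS, and 37.1, 34.8 and 31.4 FPKM in ZPS. Os03g0431200 did not overlap between the organs either, with fold changes of -1.87 (ZRR/ZRS), -2.48 (ZMR/ZMS) and -2.46 (ZPR/ZPS) on the log2 scale (SE 0.21, adjusted p at most 3.85e-06). Another N-acetyl-glutamate synthase, Os07g0585600, was at 4.09 to 9.15 FPKM in roots and 1.87 to 5.12 FPKM in shoots and was called in ZRR/ZRS alone (1.09), a call that was lost with median-of-ratios scaling (0.47) and without ZRS replicate 1 or ZRR replicate 3 (0.83 and 0.87).

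The merged locus of Os10g0503100 and Os10g0503200, described as similar to a transcription factor L2 and to folylpolyglutamate synthase, mixes both genes and was at 0.647, 1.15 and 2.02 FPKM in ZRR, 1.03, 1.04 and 1.01 FPKM in ZMR, and 1.11, 0.857 and 0.785 FPKM in ZPR. Shoots held more of it, with 12.1, 11.8 and 17.8 FPKM in ZRS, 13.4, 11.48 and 12.2 FPKM in ZMS, and 14.9, 13.3 and 12.3 FPKM in ZPS. It was lower in roots, with fold changes of -3.07 (ZRR/ZRS), -3.07 (ZMR/ZMS) and -3.31 (ZPR/ZPS) on the log2 scale (SE 0.24, adjusted p at most 6.45e-08). The 2 CNX2 loci were near each other in level. Os12g0507000 was at 13.2, 12.5 and 12.9 FPKM in ZRR, 10.8, 13.5 and 12.7 FPKM in ZMR, and 12.2, 15.3 and 13.8 FPKM in ZPR. In shoots, Os12g0507000 had 5.91, 6.93 and 9.66 FPKM in ZRS, 6.88, 7.96 and 8.17 FPKM in ZMS, and 9.38, 8.76 and 8.18 FPKM in ZPS. All its root libraries were above all its shoot libraries, but fold changes of 0.77, 0.65 and 0.62 (ZRR/ZRS, ZMR/ZMS, ZPR/ZPS) were under the threshold. Os02g0258900 was at 9.53, 7.33 and 8.38 FPKM in ZRR, 9.08, 8.90 and 7.85 FPKM in ZMR, and 8.97, 9.504 and 7.67 FPKM in ZPR. In shoots, Os02g0258900 had 4.67, 6.21 and 7.40 FPKM in ZRS, 9.14, 6.37 and 9.36 FPKM in ZMS, and 8.33, 8.49 and 8.53 FPKM in ZPS. Its organs overlapped at each supply. Os01g0183100 was at 3.69 to 7.59 FPKM in roots and 1.39 to 5.70 FPKM in shoots and called in ZRR/ZRS alone (1.21), a call that was lost with median-of-ratios scaling (0.63) and without ZRS replicate 1 or ZRS replicate 3 (0.99 and 0.98).

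Zn deficiency and Zn resupply were then compared within each organ, with the 9 libraries of the organ in 1 fit. No nitrogen locus was called in any of the 6 comparisons. In Zn-deficient shoots (ZMS/ZPS), limma called 0 of 36 tested nitrogen loci, against 0.0878% of the 20512 tested loci (18 loci), and 0 had an unadjusted p under 0.05 (1.68% of all tested loci). Their fold changes lay between -0.85 and 0.41 on the log2 scale with a median of -0.02 (all tested loci 0.03). For 24 of the 36 the whole 95% interval lay between -1 and 1, and for the other 12 it did not. These limits stand for a 2-fold change in FPKM plus the constant added before the logarithm. The constant understates the fold changes of low loci, so for them a 2-fold change in FPKM itself can lie inside such an interval. Groups did not overlap in 1 of the 36 (all tested loci 6.5%). That locus was the CNX2 gene Os12g0507000, at 6.88, 7.96 and 8.17 FPKM in ZMS and 9.38, 8.76 and 8.18 FPKM in ZPS.

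In Zn-deficient roots (ZMR/ZPR), 0 of 39 tested nitrogen loci were called, against 0.046% of the 21717 tested loci (10 loci), and 4 had an unadjusted p under 0.05 (all tested loci 3.56%). The median fold change was -0.04 (all tested loci 0.00). Groups did not overlap in 10 of the 39, 3 higher and 7 lower (all tested loci 9.23%, of which 4.48% higher and 4.75% lower). Higher were the main nitrite reductase locus, the nitrate reductase Os02g0770800 and the NADH-GOGAT Os05g0555600. Lower were the nitrate transporters Os10g0554200 and Os03g0235900, the ammonium transporters Os01g0831300 and Os02g0550800, cytosolic GS, chloroplast GS and the NADH-GOGAT Os01g0682001. None of the 10 passed the adjusted threshold, and they are given here as values.

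Os10g0554200, with 48.1, 33.5 and 20.6 FPKM in ZMR and 93.1, 57.8 and 55.6 FPKM in ZPR, had a fold change of -1.05 (SE 0.37, 95% interval -1.89 to -0.20, adjusted p = 1.0). Os02g0770800, with 35.7, 28.1 and 37.9 FPKM in ZMR and 12.8, 22.8 and 21.7 FPKM in ZPR, had 0.85 (SE 0.29, 95% interval 0.19 to 1.50, adjusted p = 1.0). Os05g0555600 had 0.74 (SE 0.24, 95% interval 0.19 to 1.28, adjusted p = 1.0), at 1.09, 1.99 and 1.16 FPKM in ZMR and 0.704, 0.665 and 0.518 FPKM in ZPR. The low-affinity nitrate transporter differed by less than the fold threshold. Os03g0235900 had -0.50 (SE 0.16, 95% interval -0.86 to -0.14, adjusted p = 0.948). Cytosolic GS averaged 484 ± 62.5 FPKM in ZMR and 743 ± 52.7 FPKM in ZPR (SD, n = 3 each), with a 95% interval of the fold change of -1.92 to 0.67 in a fit where all 9 root libraries, ZRR replicate 3 at 115 FPKM included, share 1 estimate of the spread.

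After resupply, 0 of 36 nitrogen loci were called in ZRS/ZMS (all tested loci 0.0683%) and 3 had an unadjusted p under 0.05, all lower (all tested loci 5.84%). Groups did not overlap in 4 of the 36 (all tested loci 10.1%). The 3 with an unadjusted p under 0.05 (limma) were the asparagine synthetases Os03g0291500 and Os06g0265000 and the nitrate transporter Os03g0103000. Os03g0291500 was at 4.35, 6.09 and 3.55 FPKM in ZRS and 5.93, 8.40 and 19.6 FPKM in ZMS, groups that overlapped, and had a fold change of -1.05 (SE 0.44, 95% interval -2.04 to -0.06, adjusted p = 0.834). Os06g0265000 was at 25.2, 40.04 and 32.8 FPKM in ZRS and 43.0, 52.4 and 49.2 FPKM in ZMS, without overlap, and had -0.57 (SE 0.25, 95% interval -1.13 to -0.01, adjusted p = 0.846). Os03g0103000 had -1.02 (SE 0.37, 95% interval -1.87 to -0.17, adjusted p = 0.763). Without ZRS replicate 1 the fold changes were -1.02 (Os03g0291500), -0.40 (Os06g0265000) and -0.78 (Os03g0103000), and with median-of-ratios scaling -0.82, -0.32 and -0.91, of which only that of Os03g0103000 kept an unadjusted p under 0.05. Over all tested loci the median was -0.19, and the nitrogen loci had a median of -0.22. Weighting the libraries by their fit (arrayWeights in limma) called 4 nitrogen loci, all lower (Os03g0687000, Os01g0183100, Os03g0103000 and Os03g0291500), when it called 4.36% of all tested loci. In ZRS/ZPS, 0 of 36 were called (all tested loci 0.0244%), 0 had an unadjusted p under 0.05 (4.14%), and groups did not overlap in 3 (8.43%).

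In resupplied roots, 0 of 39 nitrogen loci were called in ZRR/ZMR (all tested loci 0.124%), with 2 at an unadjusted p under 0.05 (3.51%) and 5 with groups that did not overlap (7.61%). Os03g0235900 was higher in all 3 ZRR libraries, at 14.0, 12.9 and 13.1 FPKM in ZRR and 9.89, 9.44 and 7.05 FPKM in ZMR, with 0.59 (SE 0.16, 95% interval 0.22 to 0.95, adjusted p = 0.857). Asparagine synthetase Os03g0291500 was lower in all 3, at 78.1, 70.4 and 25.5 FPKM in ZRR and 102, 129 and 101 FPKM in ZMR, with -1.07 (SE 0.39, 95% interval -1.95 to -0.19, adjusted p = 0.983). Without ZRR replicate 3 its fold change was -0.57.

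In ZRR/ZPR, which shares the ZPR libraries with ZMR/ZPR, 0 of 39 were called (all tested loci 0.023%), 4 had an unadjusted p under 0.05 (4.41%) and 6 did not overlap (8.34%). Os02g0770800 was at 51.7, 43.4 and 28.4 FPKM in ZRR and 12.8, 22.8 and 21.7 FPKM in ZPR, with 1.09 (SE 0.29, 95% interval 0.43 to 1.75, adjusted p = 0.590). This was the single nitrogen locus called with library weights (1.06, adjusted p = 0.0346, limma), when 0.953% of all tested loci were called. Os03g0291500 was at 78.1, 70.4 and 25.5 FPKM in ZRR and 124, 157 and 141 FPKM in ZPR, with -1.42 (SE 0.39, 95% interval -2.30 to -0.54, adjusted p = 0.658). Os01g0831300 was at 2.69, 2.43 and 0.418 FPKM in ZRR and 6.04, 4.82 and 5.62 FPKM in ZPR, with -1.55 (SE 0.43, 95% interval -2.53 to -0.56, adjusted p = 0.707). Both were lower in all 3 ZRR libraries, and without ZRR replicate 3 the fold changes were -0.91 and -0.97. Chloroplast GS, at 56.3, 52.1 and 38.7 FPKM in ZRR and 67.1, 66.9 and 72.1 FPKM in ZPR, had -0.50 (SE 0.17, 95% interval -0.90 to -0.10, adjusted p = 0.942).

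**Figure D4:**
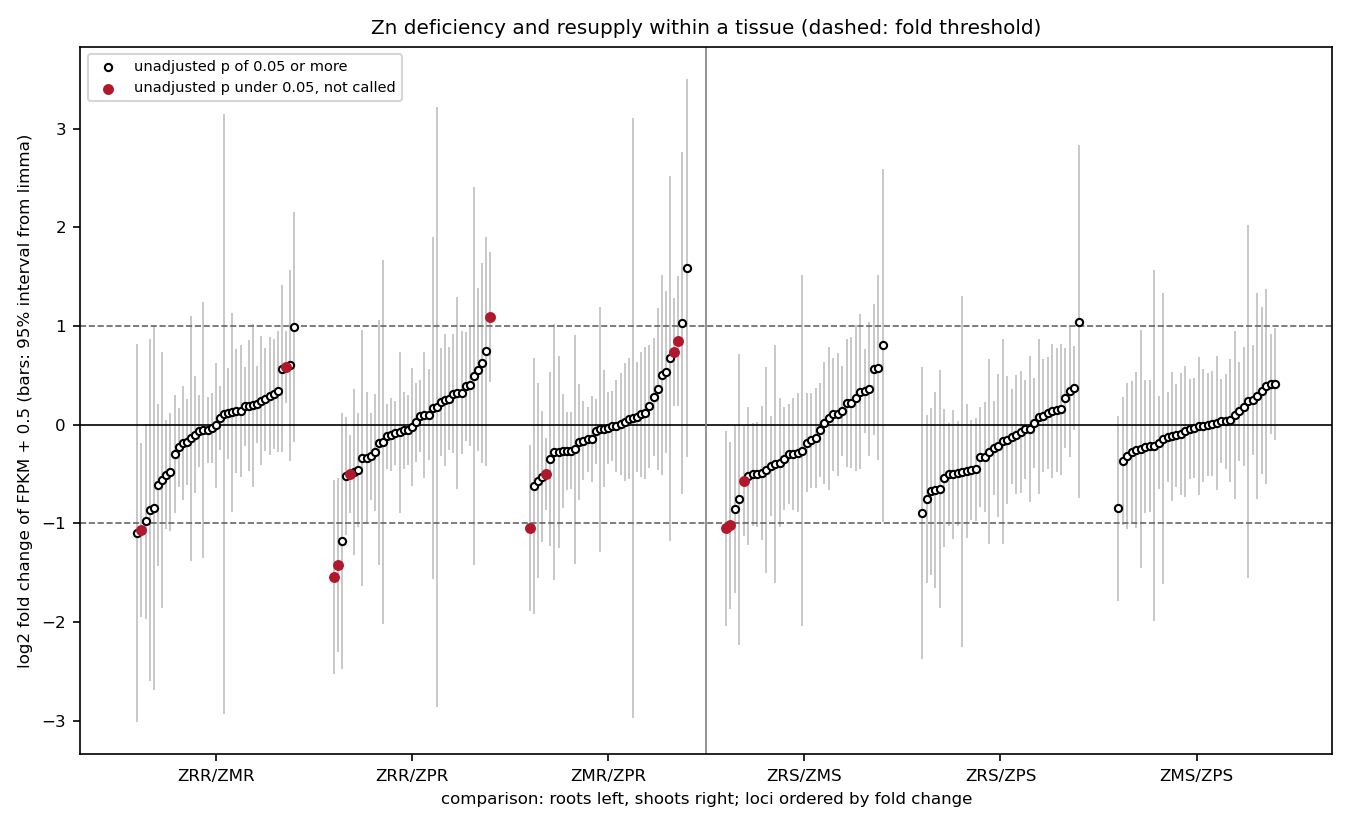
Log2 fold change (FPKM + 0.5) with 95% intervals of the tested nitrogen loci in the 6 comparisons within an organ (39 loci in roots, left, and 36 in shoots, right), ordered by size. Filled red points have an unadjusted p under 0.05, dashed lines mark the fold threshold, and no point was called.

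**Figure D5:**
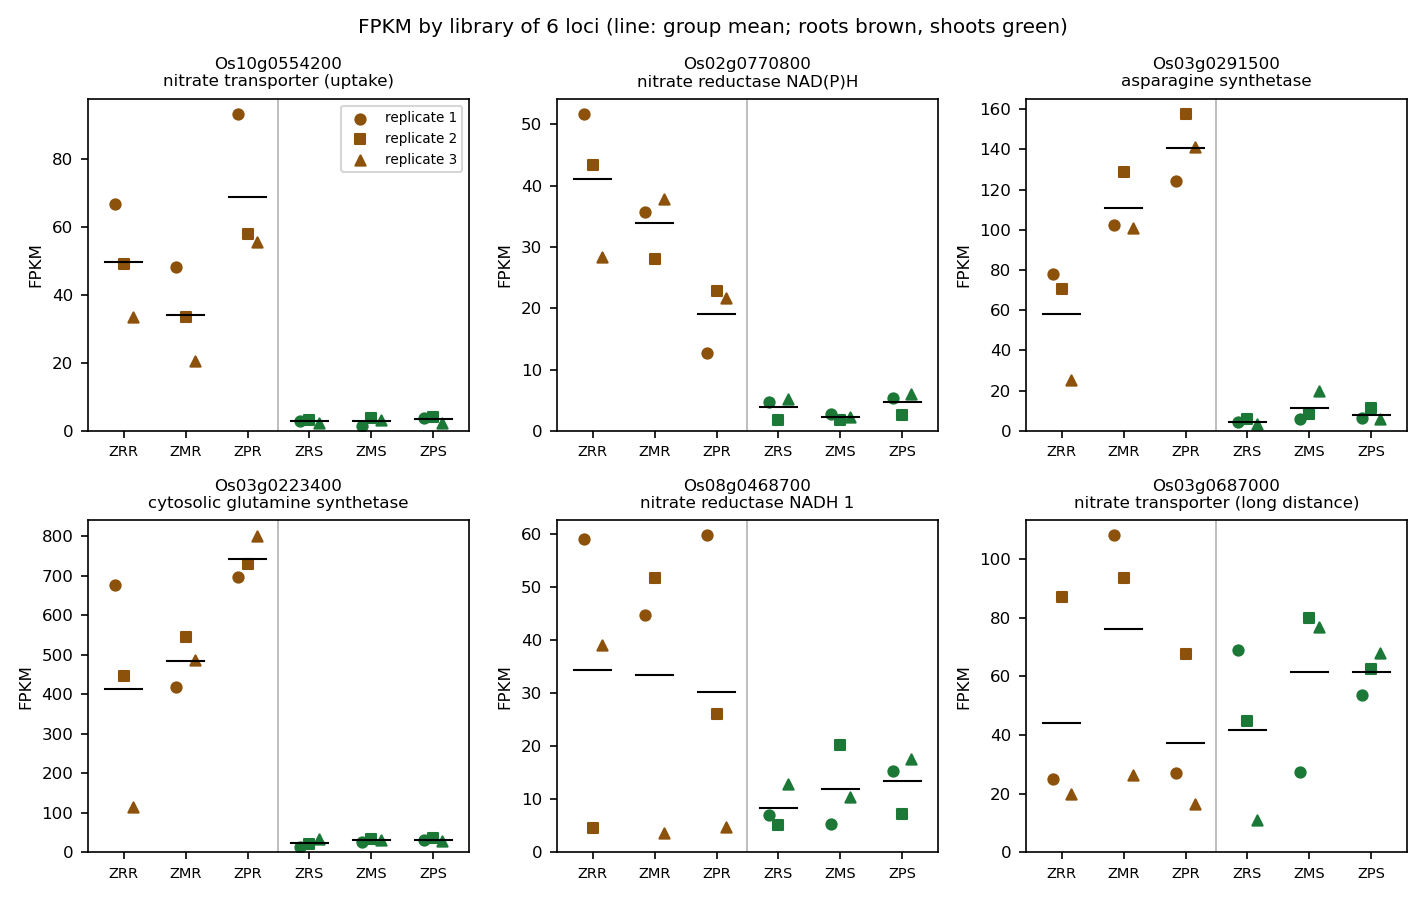
FPKM of 6 loci in each library (symbols mark the replicate number, lines the group means, roots left of shoots). Os02g0770800 is lowest in ZPR among the root groups and Os03g0291500 highest, while Os08g0468700 and Os03g0687000 spread widely within groups.

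Whether roots and shoots answered Zn differently was tested as an interaction over all 18 libraries. For deficiency, (ZMR/ZPR)/(ZMS/ZPS), limma called 0 of 40 nitrogen loci (all tested loci 0.0655%), with 3 at an unadjusted p under 0.05 (2.89%). The largest of these was Os02g0770800, where the root difference exceeded the shoot difference by 1.70 (SE 0.52, 95% interval 0.58 to 2.81, adjusted p = 0.846), with means of 33.9 FPKM in ZMR and 19.1 FPKM in ZPR, and of 2.27 FPKM in ZMS and 4.68 FPKM in ZPS. For resupply, (ZRR/ZMR)/(ZRS/ZMS), 0 of 40 were called (all tested loci 0.106%) and 4 had an unadjusted p under 0.05 (5.34%). They were Os03g0235900 (0.89), Os06g0265000 (0.91), Os01g0183100 (1.16) and Os01g0831300 (-1.34). Library weights called 2, Os01g0183100 (1.29) and Os03g0103000 (1.0), when 6.66% of all tested loci were called. Interaction intervals were wide, and 18 and 12 of the 40 lay wholly between -1 and 1 for deficiency and resupply.

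Genes that use or accompany these products were set beside them in 10 lists made from descriptions (103 loci), with the nitrogen loci left out. Within the organs, 0 of 74 tested in shoots and 0 of 75 tested in roots were called in any of the 6 comparisons. Between the organs 27 were higher and 19 lower of 82 in ZRR/ZRS, 20 and 20 in ZMR/ZMS, and 26 and 20 in ZPR/ZPS. The shares of all tested loci called higher and lower, against which these and the following counts stand, were 27.6 and 11.8% in ZRR/ZRS, 18.5 and 13.4% in ZMR/ZMS, and 20.5 and 13.5% in ZPR/ZPS. Alanine aminotransferases, which move amino groups between alanine and glutamate, were called in all 5 tested loci at each supply, 4 higher in roots and 1 lower. Glutamate decarboxylases, which turn glutamate into GABA, were higher in 2 of 4 at each supply. Ferredoxins and their reductases, which feed electrons to nitrite reductase and to ferredoxin-dependent GOGAT among others, were lower in roots in 10, 12 and 12 of 18 (ZRR/ZRS, ZMR/ZMS, ZPR/ZPS) and higher in 1, 1 and 2, with list medians of -2.38, -2.45 and -2.49. The summed level of the chlorophyll-binding and Rubisco loci was lower in roots in the same libraries, and its part in these differences was not tested. Peptide and NPF transporters, the wider family of many nitrate transporters, went both ways, with 10 higher and 7 lower of 33 in ZRR/ZRS.

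Several loci lie close together. Of the 46, 4 pairs lie within 20 kb of each other. They are the 2 nitrate reductases on chromosome 8, the main nitrite reductase with Os01g0357500, the pair Os01g0831300 and Os01g0831900 on chromosome 1, and Os02g0620500 with Os02g0620600 (5.75 kb) on chromosome 2. The authors' alignment allowed several places per read, so levels of near-identical neighbours are uncertain. Isoform tables assigned levels to single transcripts, and these moved more than the locus. In ZRR replicate 1 the whole level of cytosolic GS, 676 FPKM, was given to an assembled isoform with 12 exons and none to the annotated one with 11, whereas the annotated isoform carried nearly all of it in each of the other 17 libraries. For chloroplast GS the annotated first isoform ranged between 0 and 84.2% of the isoform total in roots and between 0 and 82.8% in shoots. For these reasons the locus was used throughout. Replicates of at least 1 group stood more than 4-fold apart (in FPKM + 0.5) in 9 of the 40 tested nitrogen loci and in 20.6% of all tested loci.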

How the data were processed

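The deposited gene table gave FPKM for 34716 loci in 18 libraries (3 per group). Per the study's methods and the submitters' processing notes, the authors checked reads with FastQC, aligned them with TopHat and Bowtie2 to the rice genome IRGSP-1.0 with RAP-DB genes, allowing several alignments per read, and estimated FPKM with Cufflinks. The tool that assembled the loci is not given in the sources used here. Gene and isoform FPKM were used as deposited by the authors, and the coverage signal deposited beside the isoforms served to measure depth. Shoot columns carry an L in place of the S of the labels. FPKM are not counts, so no count test was used, and counting error per locus is unknown.

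Values were tested as log2(FPKM + 0.5) with limma 3.58.1 in R 4.3.3 (lmFit, eBayes with trend) on loci that reached 0.5 FPKM in 3 or more libraries of the fit, and fold changes of low loci are understated by the added 0.5. The 9 libraries of an organ were fitted together for comparisons within it, and all 18 for comparisons between organs. P-values were adjusted by Benjamini-Hochberg over all tested loci. Loci were called at a log2 fold change of 1 or more in size with an adjusted p not above 0.05. The study tested with Cuffdiff, which needs the reads. Tables and plots used Python 3.11.15, pandas 2.3.3, numpy 2.4.6 and matplotlib 3.10.9.

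Values by library are given for loci with a mean of at least 5 FPKM, or with an unadjusted p under 0.05 and a log2 fold change of 1 or more in size within an organ (28 loci), and the others by range. The loci, the lists and these rules were chosen with earlier results of these data known. Separate pools of seedlings were the replicates. Same-numbered libraries deviated together in ZMS/ZPS (correlations of 0.485, 0.180 and 0.174), ZRS/ZMS (0.375, 0.236 and 0.131) and ZMR/ZPR (0.422, 0.144 and 0.124), all over 0.1, and in the other comparisons at least 1 pair did not. Libraries correlated best with their own number in 1 of 3 cases in ZMS/ZPS, 3 in ZRS/ZMS and 2 in ZMR/ZPR. Whether libraries were paired is therefore uncertain, and the labels do not state it. Alternatives changed the pseudocount, filter, scaling, variance model, library weights, samples, replicate block, treatment of zeros and call, and left out each library.

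The fits were tested on simulated data with 50 changed loci per size, picked at random from all tested loci. Values were drawn from a normal distribution with the mean and spread of each locus, so single outlying libraries were not simulated. In ZMR/ZPR, of 21717 loci, 7, 25, 33 and 35 of 50 were called at true log2 changes of 1, 1.5, 2 and 3. In ZMS/ZPS, of 20512 loci, 7, 19, 27 and 36 of 50 were called at the same sizes. Of the loci left unchanged, 10 were called in ZMR/ZPR and 7 in ZMS/ZPS.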

Additional observations from a re-analysis of the deposited data

Results flagged for a closer look

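A pair of loci that the filter on low values kept out of every test had a level in a single root library. Os02g0112100, a high-affinity nitrate transporter with 1 exon, was at 284 FPKM in ZRR replicate 1 and listed at 0 in the other 17 libraries. Os02g0620600, an ammonium transporter with 1 exon, was at 20.2 FPKM in ZRR replicate 2, at 0.766 FPKM in ZPS replicate 1 and listed at 0 in the other 16. A library listed at exactly 0, while a replicate of its group exceeded 1 FPKM, occurred in 62.6% of loci with 1 exon (1101 of 1759 with a mean above 0.5 FPKM) and in 3.56% of loci with more exons (716 of 20124). Such zeros may be failed estimates, which was not tested, and no level is read from them.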

How the results depend on the processing

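Of 31 alternatives, library weights moved counts within the organs. With them limma called 4 nitrogen loci in ZRS/ZMS, 1 in ZRR/ZPR and 2 in (ZRR/ZMR)/(ZRS/ZMS), when it called 4.36, 0.953 and 6.66% of all tested loci, and the cause was not tested. Leaving out 1 library at a time gave 0 calls in each comparison within an organ and each interaction, and 20 to 25 calls in ZRR/ZRS, 22 to 26 in ZMR/ZMS and 23 to 24 in ZPR/ZPS. The shares of all tested loci called were then 33.0 to 45.6% in ZRR/ZRS, 30.2 to 32.9% in ZMR/ZMS and 30.7 to 35.1% in ZPR/ZPS. The fit with the replicate block called 0 loci in each comparison within an organ, and between organs 23 in ZRR/ZRS, 25 in ZMR/ZMS and 23 in ZPR/ZPS (all tested loci 40.4, 33.2 and 35.3%). Of 71 called root and shoot differences of single loci, 56 were called under every alternative that gave a value, and no such share of all tested loci was worked out. The 71, and the calls between organs counted above, include those of Os01g0831900, Os02g0699000, Os03g0712800, Os03g0103000 and Os01g0704100. These loci passed the filter through 1 organ only and count as no support for a difference. Over 91 pairs of a locus and a comparison (these 71 and 20 within organs or interactions with an unadjusted p under 0.05), 45 alternative values lost a call, 4 gained one and 0 changed direction. The 4 gains were among the 7 calls made with library weights within organs and in interactions. Gains at other loci, such as the other 3 of these 7, lie outside the 91 pairs and are not in this count. At 3 libraries a group the half-width of the 95% interval had a median of 0.652 in shoots and 0.626 in roots on the log2 scale.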

Other observations

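The partner protein of high-affinity nitrate transporters is not among the 46 loci, since its description as given in the table lacks the phrases searched, and it was looked at after its values had been seen. Os02g0595900 was at 885, 849 and 11.6 FPKM in ZRR, 754, 1111 and 856 FPKM in ZMR, and 781, 20.2 and 1036 FPKM in ZPR. Its shoot values were 0, 0.302 and 0.197 FPKM in ZRS, 1.003, 0.153 and 1.07 FPKM in ZMS, and 1.13, 2.60 and 0.448 FPKM in ZPS. It was called higher in roots at all 3 supplies, by 8.32 (ZRR/ZRS), 9.60 (ZMR/ZMS) and 7.25 (ZPR/ZPS) on the log2 scale. ZRR replicate 3 and ZPR replicate 2 were far below the other 7 root libraries, and the intervals within roots were wide (-2.56 to 6.17 in ZMR/ZPR). Another locus, Os04g0480200, annotated with a Nar2 domain, was between 0 and 1.01 FPKM in all libraries.

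Genes of urea and ureide use, which release ammonium from stored nitrogen, were higher in roots in 3, 1 and 2 of 3 tested loci in ZRR/ZRS, ZMR/ZMS and ZPR/ZPS, where 27.6, 18.5 and 20.5% of all tested loci were higher. Of 2 tested asparaginases, which free ammonium from asparagine, 1 was called higher in roots at each supply, beside the same shares of all tested loci.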
